A study of Mus musculus with 18 samples.

Results

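Small nucleolar RNA (snoRNA) genes were followed in mouse embryonic fibroblast lines that carried an inducible dCas9, a Cas9 that binds DNA at a chosen sequence without cutting it. The genes were those whose symbol starts with Snord, Snora or Scarna and a number and that held at least 50 counts over the 18 libraries. Of 150 genes with such a name among the 47937 genes of the count table, 69 met this minimum, of which 42 were Snord, 20 Snora and 7 Scarna genes. Of the other 81 genes, 66 had no count. The highest sum outside the rule was 49 counts and the lowest inside it was 60 counts.

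Per the labels, dCas9 or a fusion of it was aimed at the MSR repeats of the mouse genome. The activator line carried dCas9-VPR, the repressor line dCas9-KM and the control line dCas9-control. Doxycycline was given to the induced activator cells at 10 ng/ml over 6 h, to induced repressor cells at 100 ng/ml over 24 h and to induced control cells at 10 ng/ml over 24 h. The uninduced cells of each line were untreated. Each of the 6 groups had 3 libraries. All lines grew in the same hygromycin medium. Dose and time differed between the lines, so a difference between lines in the response cannot be told apart from a difference in dose or time. The labels do not say whether a line is 1 clone, nor whether the 3 libraries of a group came from separate cultures, so every p-value rests on a spread among libraries that may be technical.

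Small nucleolar RNAs are short noncoding RNAs that pair with other RNAs and guide their chemical modification. Box C/D snoRNAs (Snord genes) guide methylation of the ribose and are bound by fibrillarin, box H/ACA snoRNAs (Snora genes) guide the change of uridine to pseudouridine and are bound by dyskerin, and both act mainly on ribosomal RNA in the nucleolus. The small Cajal body RNAs (Scarna genes) use the same boxes but act on the small nuclear RNAs of the spliceosome. In mammals most of these RNAs are cut out of introns of host genes after splicing and trimmed by exonucleases, and many hosts encode ribosomal proteins.

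The libraries were made from total RNA after removal of ribosomal RNA and held between 14928765 and 25262912 counts each. The 69 genes together held 72224 counts, which was 0.01997% of all counts. Their annotated lengths ran from 64 to 414 bases with a median of 94 bases. A count in such a gene can come from the mature RNA, from a longer precursor or from the host intron, and the table cannot tell these apart. In bulk RNA, fewer cells of a type and less RNA per cell cannot be told apart either. The fibroblast label was checked on 12 marker genes, 8 of which averaged at least 10 CPM (counts per library brought to 1 size by TMM normalization) and 9 of which reached 1 CPM in at least 1 library. As a check of the activator label, Gm10800, a gene model of satellite sequence, had 2931, 2386 and 2071 CPM in the induced activator libraries against 18.7, 17.7 and 20.4 CPM in the uninduced ones. The uninduced libraries of the other lines were lower still, at 4.93, 5.17 and 3.48 CPM in the control line and 4.16, 3.4 and 3.31 CPM in the repressor line.

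Sequences are shown for the 3 snoRNAs of 1 host, which all fell on activator induction, for Snord83b, which fell inside a host that rose, for the abundant Snord17 and for a near-identical pair, as annotated in GENCODE M21 on GRCm38. For the box C/D genes, capitals mark box C, searched as TGATGA in the first 25 bases, and box D, searched as CTGA in the last 15 bases. Snord49a (chr11:62603450-62603521, plus strand), Snord49b (chr11:62603079-62603150, plus strand) and Snord65 (chr11:62604515-62604586, plus strand) lie in introns of the noncoding host 2410006H16Rik. Snord83b (chr15:80078498-80078591, minus strand) lies in an intron of the ribosomal protein gene Rpl3, and Snord17 (chr2:144265979-144266216, minus strand) in an intron of Snx5.
Snord49a: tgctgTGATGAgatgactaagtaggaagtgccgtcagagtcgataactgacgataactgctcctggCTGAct
Snord49b: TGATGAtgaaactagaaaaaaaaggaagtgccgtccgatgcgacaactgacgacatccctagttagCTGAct
Snord65: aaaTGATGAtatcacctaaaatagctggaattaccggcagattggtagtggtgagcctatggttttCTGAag
Snord83b: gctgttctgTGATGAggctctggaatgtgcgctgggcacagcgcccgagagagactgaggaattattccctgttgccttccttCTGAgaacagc
Snord17: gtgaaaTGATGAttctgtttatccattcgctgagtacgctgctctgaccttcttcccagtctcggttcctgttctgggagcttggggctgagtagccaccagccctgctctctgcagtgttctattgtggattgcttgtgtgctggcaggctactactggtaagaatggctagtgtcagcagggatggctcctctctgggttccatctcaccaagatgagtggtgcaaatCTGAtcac

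Of the box H/ACA genes, Snora73a (chr4:132352775-132352979, minus strand) and Snora73b (chr4:132352322-132352526, minus strand), copies of the U17 snoRNA that takes part in the cutting of ribosomal RNA, lie in introns of Rcc1 and of Snhg3. In this pair capitals mark the 7 of 205 positions that differ, an identity of 96.6%.
Snora73a: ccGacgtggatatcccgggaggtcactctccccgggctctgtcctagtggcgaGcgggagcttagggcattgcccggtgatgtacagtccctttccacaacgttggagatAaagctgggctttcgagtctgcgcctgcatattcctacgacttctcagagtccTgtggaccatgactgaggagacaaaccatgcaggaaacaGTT
Snora73b: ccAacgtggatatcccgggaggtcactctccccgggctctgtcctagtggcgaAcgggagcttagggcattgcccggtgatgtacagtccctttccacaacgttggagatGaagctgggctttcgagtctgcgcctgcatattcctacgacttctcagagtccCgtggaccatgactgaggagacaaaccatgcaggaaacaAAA

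The boxes were where the names place them in most of the 69 models. Box C as spelled was found in 24 of 42 Snord genes, box D in 37 and both in 23, against 0, 1 and 0 of the same 42 sequences read from the opposite strand. ACA stood 3 bases from the end in 17 of 20 Snora genes, against 0 of 20 on the opposite strand and 0 of 42 Snord genes. Of the 7 Scarna genes, 3 held both box C and box D and 2 held the ACA. The windows and letters were matched exactly, so a model with extra bases at its ends can hold a box that was not found.

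Levels were uneven. Scarna2, which guides modification of the U2 small nuclear RNA, Snora73b and Snord17 averaged 34.1, 27.7 and 21.1 CPM over the 18 libraries and held 41.8% of the summed level. The next were Snora17 at 6.73 CPM, Scarna6 at 6.59 CPM and Scarna13 at 5.01 CPM, and the others averaged less. Per kilobase of annotated length, the order was Snora73b (134.9 CPM per kb), Snord17 (88.8 CPM per kb), Scarna2 (82.3 CPM per kb), Snord104 (66.3 CPM per kb) and Snord49a (63.5 CPM per kb). The filter on low counts kept 65 of the 69 genes for testing. The 4 that were not tested were Scarna3a, Scarna8, Snord34 and Snord35b, with 89, 119, 60 and 67 counts in all.

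Induction of the activator was followed by lower levels of most snoRNA genes and higher levels of most of the small Cajal body RNA genes tested, though these last rises were not found when libraries were scaled to mitochondrially encoded genes. Of 65 tested genes, 43 fell, 7 rose and 15 did not pass the test, where rise and fall mean an edgeR quasi-likelihood p that, adjusted by Benjamini-Hochberg over all 16216 genes tested, was under 0.05. Over all genes tested, 37.2% fell and 38.2% rose. The median log2 fold change of the 65 genes was -1.03, beside 0.00 over all genes tested. At least 2-fold falls were found in 34 of 65 genes, beside 11.9% of all genes. In 43 of 65 genes, the 3 induced libraries were all below the 3 uninduced ones, beside 37.8% of all genes. Of the 43 genes, 39 also fell under each of 4 other scalings. Of the 7 genes that rose, 0 did so under all 4. Scaling to the 13 mitochondrially encoded genes moved the median of all genes to -0.74 (log2) and put 6 of the 7 below 0. Total counts moved that median to -0.22, so under both of these scalings a fall passes more easily and a rise less easily. DESeq2 size factors moved the median to 0.05 and upper-quartile normalization to 0.11.

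**Figure D1:**
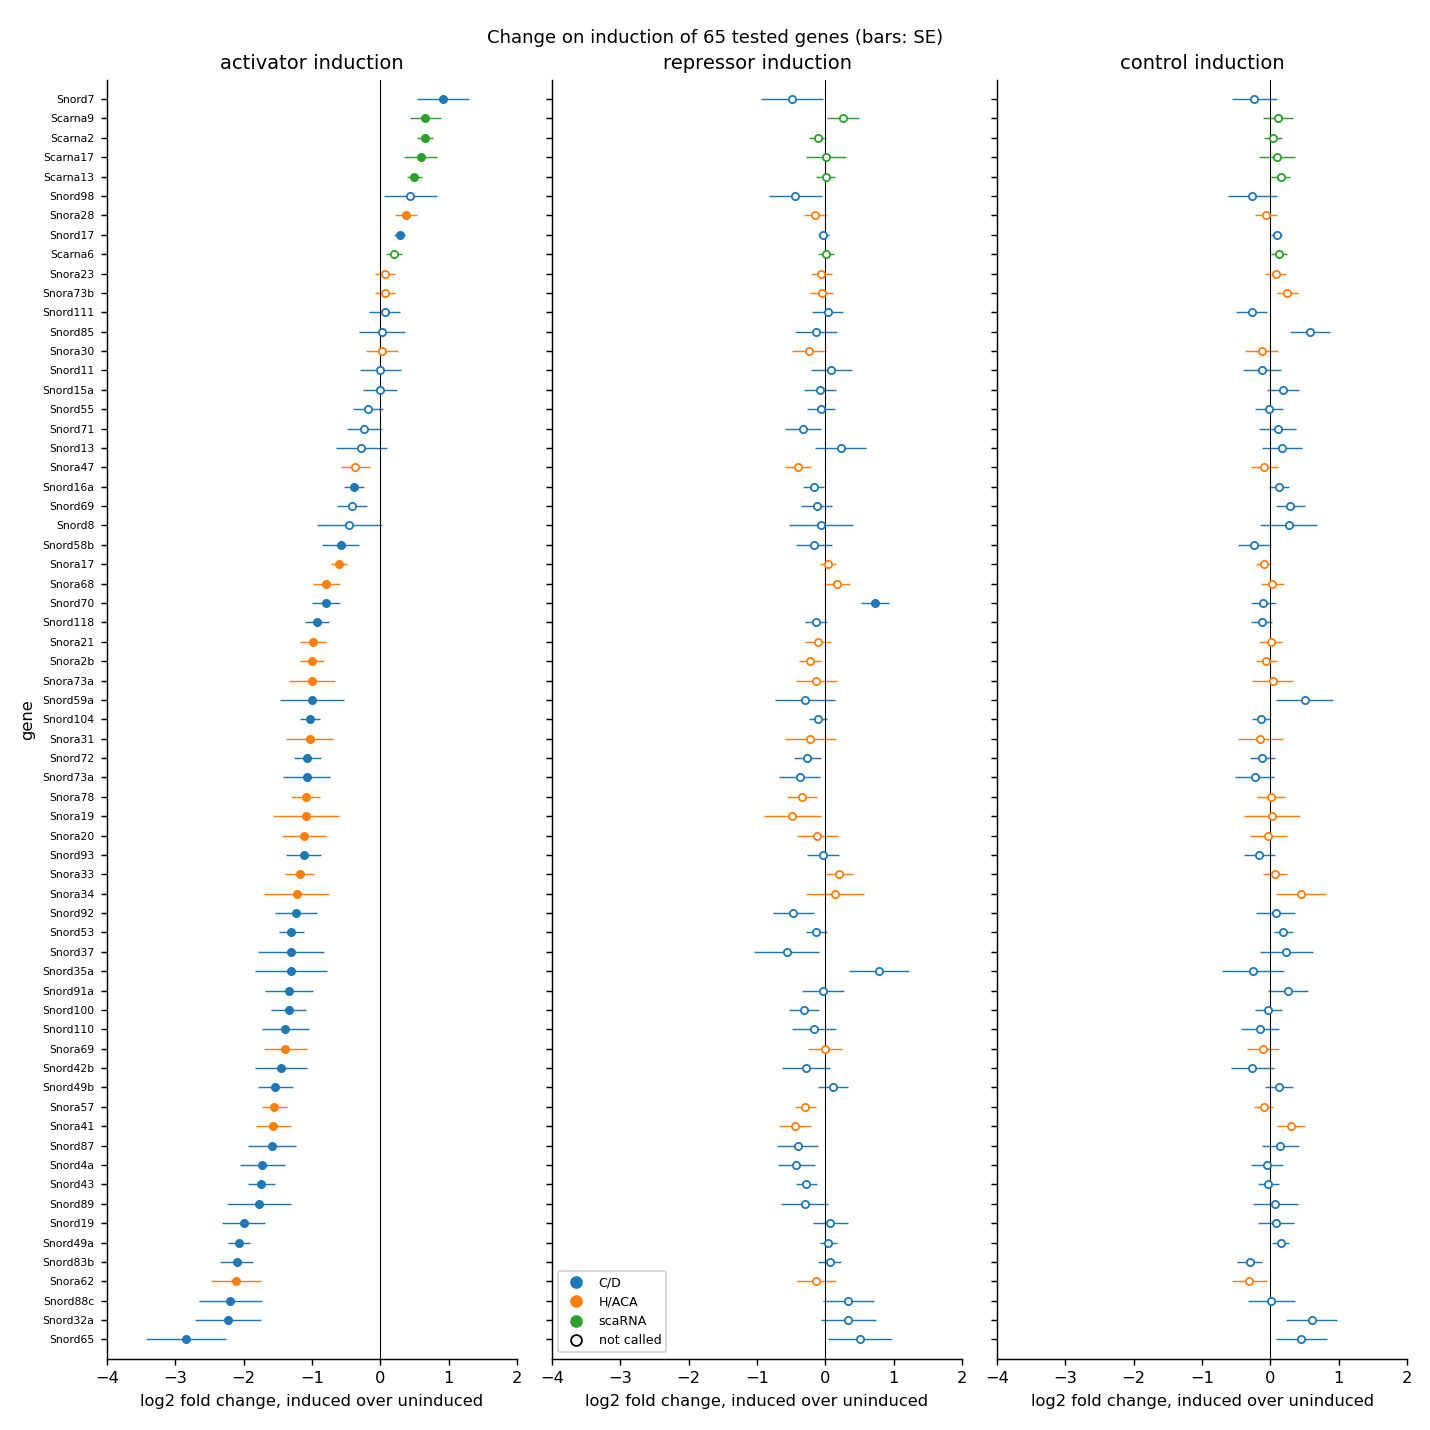
Log2 fold change, induced over uninduced, of the 65 tested genes in the activator, repressor and control lines (left to right), ordered by the activator line; bars are the standard error, filled points passed an adjusted p of 0.05, and colours give the class. In the activator line 43 genes fell and 7 rose, although none of the 7 rose when libraries were scaled to mitochondrially encoded genes; in the repressor line 1 rose and in the control line none passed.

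Of 40 tested box C/D genes, 28 fell and 2 rose, with a median log2 fold change of -1.10, and of 20 box H/ACA genes, 15 fell and 1 rose, with a median of -1.02. Of the 5 tested small Cajal body RNA genes none fell and 4 rose, with a median of 0.59, but 2 of 5 rose when libraries were scaled to total counts and none when they were scaled to mitochondrially encoded genes. Whether the classes differ in their change was not tested. The summed level of the 42 box C/D genes was 66.0, 56.8 and 56.8 CPM in the induced activator libraries against 91.5, 93.8 and 84.4 CPM in the uninduced ones. That of the 20 box H/ACA genes was 66.6, 57.5 and 54.5 CPM in the induced libraries against 76.4, 80.6 and 72.4 CPM in the uninduced ones. That of the 7 small Cajal body RNA genes was 72.6, 67.2 and 62.8 CPM in the induced libraries against 43.8, 49.2 and 43.5 CPM in the uninduced ones. Scarna2 alone gave 47.7 of the mean of 67.5 CPM in induced and 30.2 of 45.5 CPM in uninduced libraries. Of the box H/ACA means of 59.5 and 76.5 CPM, Snora73b gave 30.9 and 29.1 CPM. In each class the induced and uninduced libraries did not overlap, and the exact two-sided permutation test gave p = 0.1, the smallest that 3 against 3 libraries allow. Summed over all 69 genes the groups overlapped, at 186.9 ± 16.3 CPM in induced and 211.8 ± 11.8 CPM in uninduced activator libraries (SD, n = 3 each; exact permutation p = 0.2). Without Scarna2, Snora73b and Snord17 the sum was 83.5 ± 3.55 CPM in induced and 132.3 ± 4.53 CPM in uninduced libraries.

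**Figure D2:**
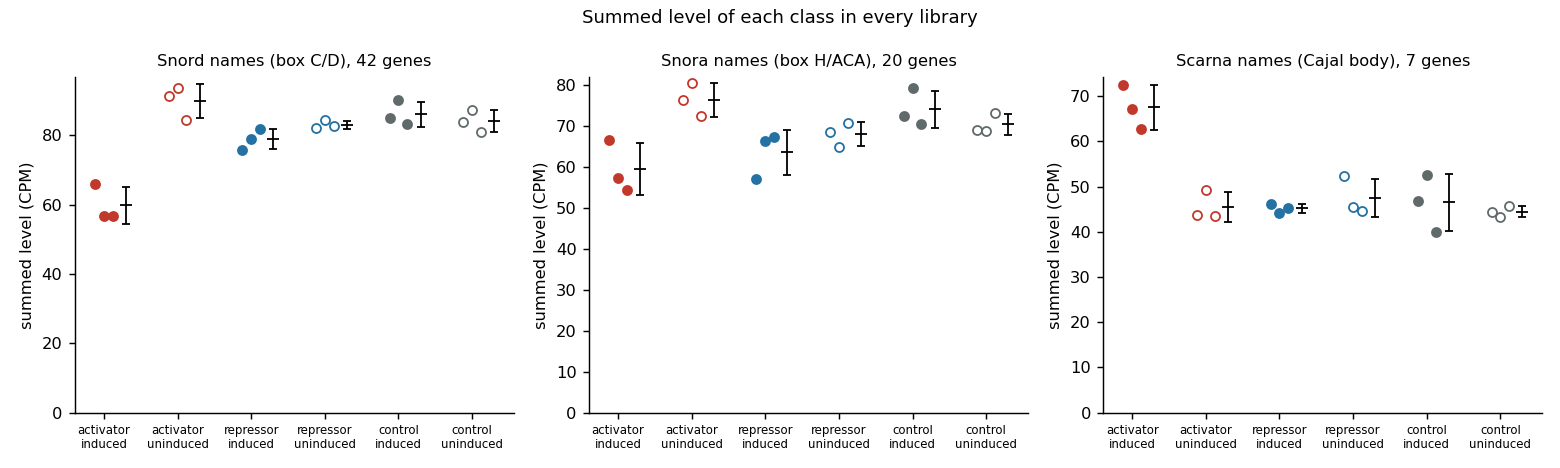
Summed level (CPM) of the 42 box C/D, 20 box H/ACA and 7 small Cajal body RNA genes in each of the 18 libraries; points are libraries, filled for induced and open for uninduced, and the bar beside them is the mean with its SD (n = 3). The induced activator libraries lie below the uninduced ones in the first 2 panels and above them in the third. There Scarna2 held most of the sum, and no gene rose when libraries were scaled to mitochondrially encoded genes.

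Among the box C/D genes, Snord49a, a methylation guide, fell with the smallest adjusted p. Its level was 1.38, 1.34 and 1.38 CPM in the induced activator libraries against 5.44, 5.67 and 6.32 CPM in the uninduced ones. The groups were far apart and the induced libraries nearly equal (log2 fold change -2.07, SE 0.17, edgeR adjusted p = 7.8e-20). Its neighbour Snord49b had 0.715, 0.667 and 0.716 CPM in induced against 1.65, 2.32 and 2.25 CPM in uninduced libraries. Snord65, the other snoRNA of this host, had 4 counts over the 3 induced libraries against 39 over the uninduced ones. Both fell, by 1.53 and 2.84 on the log2 scale, and Snord65 was at 0 counts in 1 induced library. The host 2410006H16Rik itself averaged 27.9 ± 2.03 CPM in induced and 34.2 ± 1.21 CPM in uninduced libraries (SD, n = 3 each), a log2 fold change of -0.28.

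The pair in the introns of Rpl3, the gene of a large-subunit ribosomal protein, also fell. Snord83b had 0.605, 0.534 and 0.818 CPM in induced against 2.42, 3.56 and 2.55 CPM in uninduced activator libraries (log2 fold change -2.10, SE 0.24, edgeR adjusted p = 1.44e-12). Snord43 had 1.38, 1.60 and 0.920 CPM in induced against 5.21, 3.77 and 3.59 CPM in uninduced libraries (log2 fold change -1.74). In neither did the groups overlap. The Snord43 model is annotated as a microRNA despite its name, and box C and box D were not found in it as searched. Rpl3 rose in the same libraries, to 532.1 ± 27.1 CPM in induced against 441.4 ± 10.3 CPM in uninduced ones (SD, n = 3 each), although ribosomal protein hosts as a group turned lower when libraries were scaled to mitochondrially encoded genes.

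Other box C/D genes that fell by more than 1.5 on the log2 scale and averaged at least 1 CPM in either group were Snord19 (log2 fold change -2.0), Snord4a (-1.72) and Snord87 (-1.59), with libraries of the groups apart in all 3. Below that level Snord32a, Snord88c and Snord89 had log2 fold changes of -2.23, -2.19 and -1.78, each from few counts. Snord32a and Snord35a, snoRNAs of the Rpl13a gene that are known in mouse cells for a role in lipid toxicity, both fell, Snord35a by 1.31. Snord35a did not pass without uninduced library 2, induced library 2 or induced library 3, where its log2 fold change lay between -1.16 and -0.67. Snord16a fell by less, with 4.35, 3.94 and 2.86 CPM in induced against 4.91, 5.46 and 3.77 CPM in uninduced libraries. Its groups overlapped (log2 fold change -0.38, edgeR adjusted p = 0.0143), and it did not pass without uninduced library 2 (-0.27) or induced library 3 (-0.21).

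Some box C/D genes without an annotated host have known roles in cutting or acetylating ribosomal RNA. Snord118, known as U8 and needed for maturation of the large-subunit RNA, had 1.93, 2.14 and 1.84 CPM in induced against 3.72, 4.22 and 2.98 CPM in uninduced activator libraries. It fell with no overlap (log2 fold change -0.92, SE 0.18, edgeR adjusted p = 2.87e-06). Snord13, which takes part in acetylation of the small-subunit RNA, did not pass, at 0.440, 0.467 and 0.665 CPM in induced against 0.690, 0.621 and 0.608 CPM in uninduced libraries (log2 fold change -0.28, SE 0.37). Snord104, also without an annotated host, fell (log2 fold change -1.03). U3, which has several copies, was not analysed here, and the Snord14, Snord22 and Snord116 genes were listed at 0 counts.

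Among the box H/ACA genes, Snora62 fell most. It had 0.440, 0.200 and 0.153 CPM in induced against 1.07, 1.24 and 1.22 CPM in uninduced activator libraries. The groups did not overlap (log2 fold change -2.11, SE 0.37, edgeR adjusted p = 3.23e-07). Snora41, in an intron of the elongation factor gene Eef1b2, and Snora57, without an annotated host, fell by 1.56 and 1.55 on the log2 scale. Snora57 overlaps the gene Lbhd1 on the opposite strand, so its counts are uncertain. Snora17, the second most abundant gene of this class, had 5.56, 4.34 and 4.24 CPM in induced against 7.02, 7.78 and 6.62 CPM in uninduced libraries. It fell by less than the others named (log2 fold change -0.60, SE 0.12). Snora23 did not pass, at 4.90, 3.54 and 3.38 CPM in induced against 4.45, 3.43 and 3.16 CPM in uninduced libraries (log2 fold change 0.07).

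Of the 7 genes that rose, 4 were small Cajal body RNA genes, and none of these 4 rose when libraries were scaled to mitochondrially encoded genes. Scarna2 had 52.4, 47.5 and 43.3 CPM in induced against 28.5, 34.2 and 28.0 CPM in uninduced activator libraries. The groups did not overlap (log2 fold change 0.65, SE 0.12, edgeR adjusted p = 0.00027), but its log2 fold change was -0.09 when libraries were scaled to mitochondrially encoded genes. Scarna13 had 8.03, 7.54 and 7.62 CPM in induced against 5.06, 5.25 and 6.38 CPM in uninduced libraries (log2 fold change 0.50, or -0.24 with that scaling). Scarna9 rose, with 3.03, 2.74 and 2.05 CPM in induced against 1.76, 1.57 and 1.52 CPM in uninduced libraries (log2 fold change 0.66), and did not pass without induced library 1 (0.52). Scarna17 rose (0.59) but did not pass without any 1 of 3 activator libraries, uninduced 1 or 2 or induced 3. Scarna6 had 7.37, 7.61 and 7.52 CPM in induced against 7.02, 6.70 and 5.59 CPM in uninduced libraries and did not pass (log2 fold change 0.20, edgeR adjusted p = 0.111).

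Snord17 rose, with 27.8, 23.6 and 22.9 CPM in induced against 20.8, 20.9 and 19.1 CPM in uninduced activator libraries (log2 fold change 0.28, SE 0.08, edgeR adjusted p = 0.00113). With total counts as the scale it was at 0.06 and did not pass, and scaled to mitochondrially encoded genes it was at -0.46. Snora28 rose by 0.37 and did not pass without uninduced library 3 or induced library 2 or 3 (0.28 to 0.35). Snord7, a guide for the U6 small nuclear RNA that lies in the noncoding host AA465934, was low, at 0.660, 1.00 and 0.614 CPM in induced against 0.268, 0.414 and 0.547 CPM in uninduced libraries (log2 fold change 0.91). It did not pass without uninduced library 1 (0.65) or induced library 2 (0.69). Snora73b, the most abundant gene per length, had 37.5, 29.5 and 25.8 CPM in induced against 29.8, 32.1 and 25.5 CPM in uninduced libraries, so the groups overlapped (log2 fold change 0.07, SE 0.15).

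**Figure D3:**
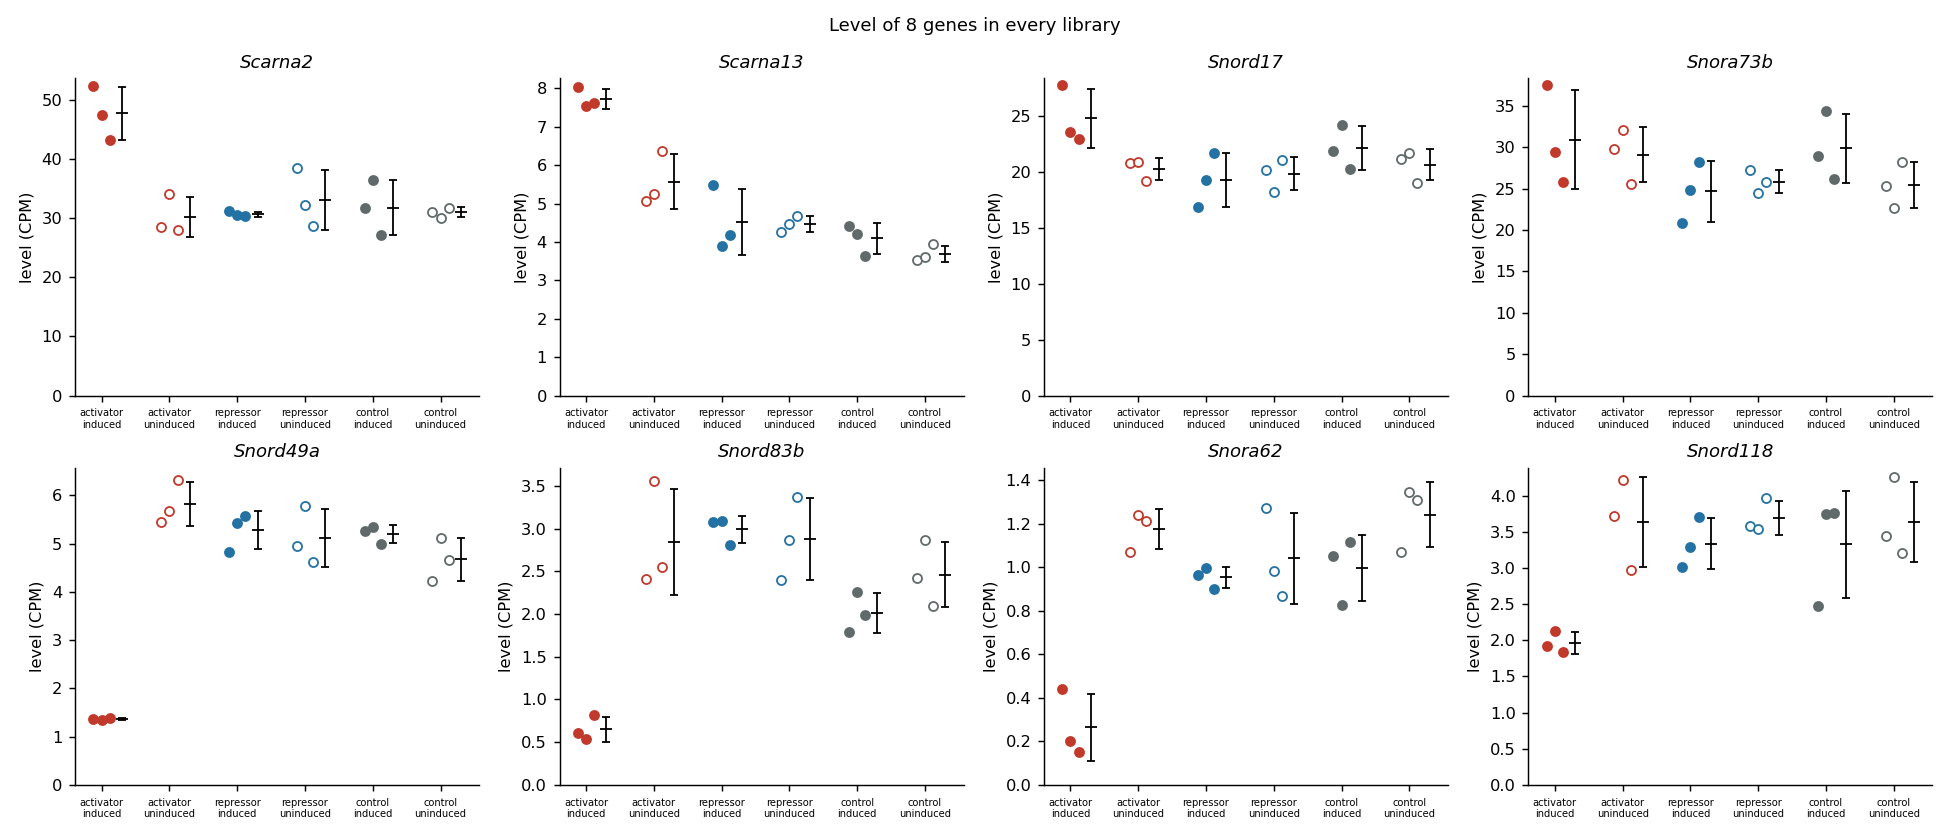
Level (CPM) of 8 genes in each library; points are libraries, filled for induced and open for uninduced, and the bar beside them is the mean with its SD (n = 3). In the activator line the induced libraries of Snord49a, Snord83b, Snora62 and Snord118 lie below all uninduced ones, those of Scarna2, Scarna13 and Snord17 lie above them (their log2 fold changes were below 0 when libraries were scaled to mitochondrially encoded genes), and those of Snora73b overlap them.

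By length, 25 of 35 tested genes from 60 to under 100 bases fell and 3 rose (median log2 fold change -1.12), and 17 of 23 genes from 100 to under 150 bases fell and 1 rose (median -1.03). Of the 7 genes of 150 to 420 bases, 1 fell and 3 rose (median 0.20), though the rises turn with scaling as above. Across the 65 genes, the log2 fold change had a Pearson r of 0.34 and a Spearman rho of 0.24 with log2 length, 0.33 and 0.28 with log2 mean level, and 0.10 and 0.13 with GC content. These are descriptions over genes of the same 6 libraries, and genes are not independent replicates. The part of length and level in the result was not tested.

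Most snoRNA genes had a lower fold change than the gene that hosts them. Of the 69 genes, 62 lie within 50 annotated hosts on the same strand, 51 of them in introns alone, and 7 have no annotated host. In the 57 tested pairs of a gene and its host, the genes had a median log2 fold change of -1.07 and their 46 hosts a median of 0.28. Of these hosts 27 rose and 17 fell, beside 38.2% of all genes that rose and 37.2% that fell. When libraries were scaled to mitochondrially encoded genes, none of the 49 hosts in the table rose and 48 fell. That scaling called 14371 of all 16216 genes and moved their median log2 fold change to -0.74. With TMM, the snoRNA gene fell while its host rose in 22 pairs, and both fell in 16. In 47 of 57 pairs the snoRNA gene had the lower fold change, an order that a common scaling factor leaves as it is. Across the 57 pairs the Pearson r of the fold changes was 0.11 and Spearman's rho 0.07, over genes that share libraries and in part share hosts.

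The median difference in log2 fold change, gene minus host, was -1.76 for ribosomal protein hosts, -0.96 for noncoding hosts and -0.53 for other coding hosts, and whether the kinds of host differ was not tested. All 14 ribosomal protein hosts of tested genes rose, with a median log2 fold change of 0.56, beside 38.2% of all genes. Of their 18 snoRNA genes 16 fell and none rose, with a median of -1.24, beside 37.2% of all genes that fell. With mitochondrially encoded genes as the scale 14 of all 15 such hosts fell, and all 18 snoRNA genes fell too. That scaling called 14371 of all 16216 genes, with a median log2 fold change of -0.74. Every one of the 18 was below its host. Summed over 20 genes and 15 hosts, the snoRNA genes had 19.5, 17.9 and 19.3 counts per 10000 host counts in the induced activator libraries against 55.4, 57.8 and 54.8 in the uninduced ones. The groups did not overlap, and this ratio does not depend on the scaling of the libraries. It lay between 49.3 and 57.5 in all libraries of the repressor and control lines. Snord15a in Rps3 did not pass, at 1.43, 1.27 and 1.48 CPM in induced against 1.73, 1.12 and 1.34 CPM in uninduced libraries.

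**Figure D4:**
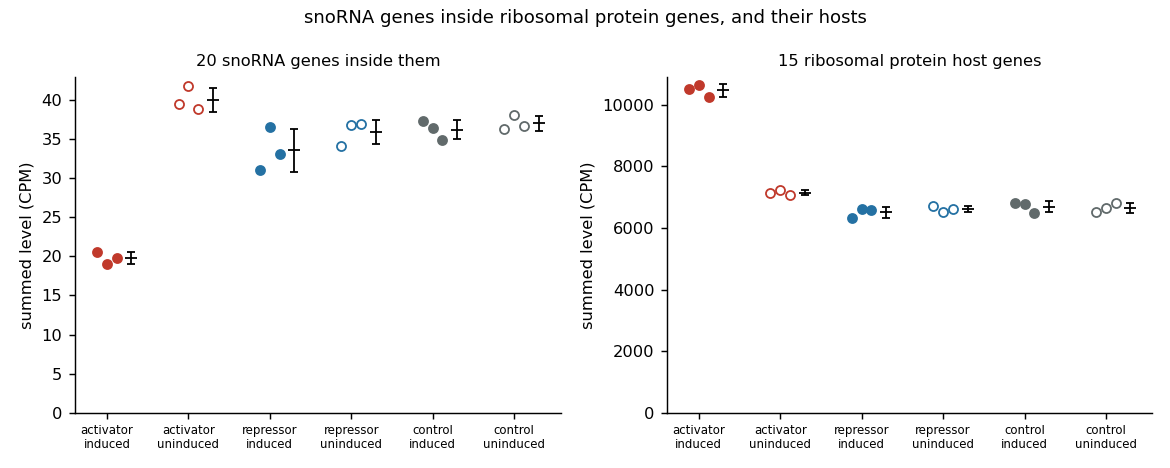
Summed level (CPM) of 20 snoRNA genes inside ribosomal protein genes (left) and of their 15 host genes (right) in each library; points are libraries, filled for induced and open for uninduced, and the bar is the mean with its SD (n = 3). In the activator line the induced libraries lie below the uninduced ones on the left and above them on the right, where the order turns when libraries are scaled to mitochondrially encoded genes.

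In other coding hosts 16 of 31 snoRNA genes fell and 3 rose, with a median of -0.79 beside -0.04 for 26 hosts. In noncoding hosts 7 of 8 fell and 1 rose, with a median of -1.56 beside -0.45 for 6 hosts. Counts per 10000 host counts were 78.8, 69.0 and 69.4 in induced against 100.8, 101.5 and 89.7 in uninduced activator libraries for other coding hosts, with no overlap. For noncoding hosts they were 829, 731 and 713 in induced against 1400, 1667 and 1682 in uninduced libraries.

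**Figure D5:**
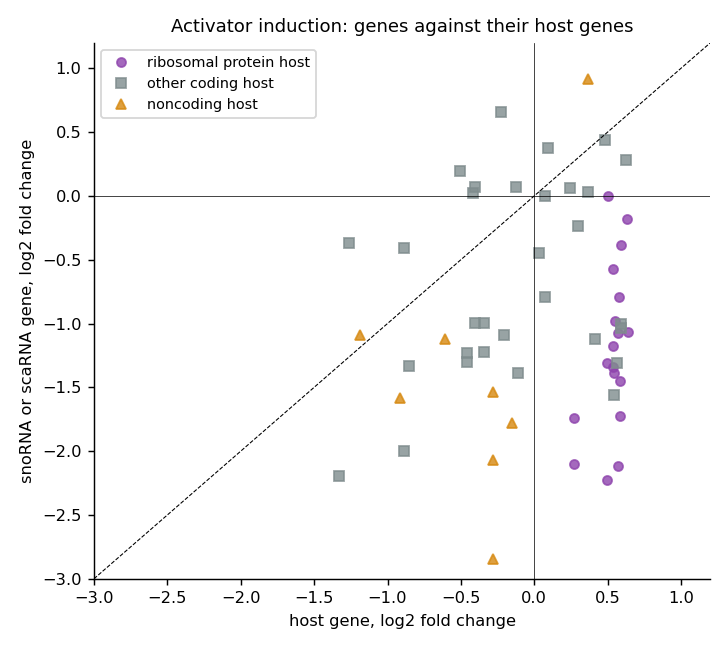
Log2 fold change on activator induction of 57 snoRNA and small Cajal body RNA genes (vertical) against that of their host gene (horizontal), by kind of host; the dashed line marks equal change. Of the points, 47 of 57 lie below the line, all 18 with a ribosomal protein host among them; another scaling shifts all points along the dashed line.

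Genes of the same host did not always move together. In Gnl3, Snord19 fell while Snord69 did not pass (log2 fold changes -2.0 and -0.41), and their ratio was 0.143, 0.571 and 0.625 in induced against 1.37, 1.17 and 1.30 in uninduced activator libraries. In Nop58, which encodes a box C/D core protein, Snord70 fell (-0.79) and Snord11 did not pass (0.00), with ratios of 1.60, 1.56 and 1.68 in induced against 2.11, 3.81 and 3.07 in uninduced libraries. Snora73a fell (-1.0) and Snora73b did not pass (0.07), with ratios of 0.0176, 0.00905 and 0.0198 in induced against 0.0334, 0.0284 and 0.0429 in uninduced libraries. These 3 pairs were chosen because 1 gene passed and the other did not, so their ratios, which did not overlap, are a description. In hosts where both genes fell, the ratio of Snord83b to Snord43 in Rpl3 was 0.440, 0.333 and 0.889 in induced against 0.463, 0.945 and 0.712 in uninduced libraries, and that of Snora33 to Snord100 in Rps12 was 2.62, 1.88 and 2.26 in induced against 2.0, 1.51 and 3.33 in uninduced libraries. In both of these the groups overlapped. The copies Snora73a and Snora73b are near-identical, so reads could be placed on either and their split is uncertain; Snora73a did not pass without induced library 2 (-0.76). In 2410006H16Rik, Rpl3, Rpl13a, Rpl23a, Rps12, Wdr43 and Kansl2 every tested snoRNA gene fell.

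The change in the activator line also differed from that in the control line. Subtracting the control line's change, 39 of 65 genes were lower and 2 higher, beside 33.0% lower and 30.8% higher of all genes tested, with a median of -0.95. The 2 that were higher were Scarna2 (0.61) and Snord7 (1.15), and neither passed with total counts or mitochondrially encoded genes as the scale. The activator was induced for 6 h and the control for 24 h, so time and effector cannot be told apart.

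In the control line itself 0 of 65 genes passed, beside 0.463% of all genes (edgeR), 0 had an unadjusted p under 0.05, and limma-voom gave 0 as well, while DESeq2 gave none of them an adjusted p. The median log2 fold change was 0.02. In the repressor line 1 gene rose and none fell, beside 9.81% of all genes in either direction, with a median of -0.12. This was Snord70, at 2.36, 2.19 and 2.86 CPM in induced against 1.52, 1.39 and 1.58 CPM in uninduced repressor libraries (log2 fold change 0.73, SE 0.21, edgeR adjusted p = 0.0112). The groups did not overlap, but it did not pass without uninduced library 2 (0.67) or induced library 3 (0.60). The summed box C/D level was 76.0, 79.0 and 81.8 CPM in induced against 82.2, 84.4 and 82.8 CPM in uninduced repressor libraries, without overlap and with an exact permutation p of 0.1, the smallest possible. The groups overlapped for the box H/ACA genes, at 57.2, 66.3 and 67.3 CPM in induced against 68.6, 64.9 and 70.7 CPM in uninduced libraries (exact permutation p = 0.4), and for the small Cajal body RNA genes, at 46.3, 44.1 and 45.2 CPM in induced against 52.4, 45.4 and 44.6 CPM in uninduced libraries (exact permutation p = 0.6). Against the control line's change, 0 of 65 genes passed for the repressor, beside 2.73% of all genes (edgeR; 2 at an unadjusted p under 0.05; limma-voom also gave 0, and DESeq2 0 of the 52 genes it gave an adjusted p).

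Few of the genes differed between the lines before induction. In uninduced activator against uninduced control libraries 3 genes were higher and 1 lower, beside 8.92% higher and 10.5% lower of all genes. Scarna13 was higher, at 5.06, 5.25 and 6.38 CPM in activator against 3.54, 3.61 and 3.94 CPM in control libraries (log2 fold change 0.58, edgeR adjusted p = 0.000517). Snord19 (0.67) and Snora78 (0.58) were also higher and Snord7 lower (-0.99), and leaving out 1 library ended each of these 3 calls: 9 different libraries did so for Snord19, 3 for Snora78 and 4 for Snord7. In uninduced repressor against uninduced control libraries 0 genes passed, beside 1.56% of all genes (edgeR; 4 at an unadjusted p under 0.05; limma-voom also gave 0, and DESeq2 0 of 16 genes with an adjusted p).

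Genes for proteins that bind, move and trim these RNAs changed in both directions on activator induction, but none of them rose when libraries were scaled to mitochondrially encoded genes, and the counts are to be read beside the 38.2% of all genes that rose and the 37.2% that fell. Of the 4 box C/D core protein genes, Fbl (fibrillarin, the methylase, at a log2 fold change of 0.27), Snu13 and Nop58 rose and Nop56 fell (-0.11). Nop58 passed narrowly (0.07, edgeR adjusted p = 0.046), and with limma-voom 2 of the 4 rose. Of the 4 box H/ACA core genes, Nhp2 rose (0.17), and Dkc1 (dyskerin, the pseudouridine synthase; -0.12) and Gar1 (-0.27) fell. Of 11 assembly factor genes 4 rose and 4 fell. Of 10 genes for trafficking and capping 3 rose and 7 fell, among them Coil (coilin, the scaffold of Cajal bodies; -1.44, SE 0.10) and Tgs1 (which methylates the cap of some snoRNAs; -0.98, SE 0.05). Of 24 genes for trimming and decay 9 rose and 11 fell. Parn (a 3′ exonuclease, 0.64) and Exosc10 (a catalytic subunit of the nuclear exosome, 0.45) were higher. Toe1 (another 3′ exonuclease, -0.89) was lower. Of 28 genes for ribosomal RNA synthesis and processing 8 rose and 16 fell, with Polr1b (a subunit of RNA polymerase I; -1.21) and Imp3 (of the small-subunit processome; -1.11) lower. Of 15 genes for intron removal 14 rose and 1 fell, with a median of 0.37. The lists were chosen with results of these data known and support no direction.

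The other snoRNA and small Cajal body RNA models of the annotation, which carry other names, were set beside the 69. Of 155 such models with at least 50 counts, 123 were tested on activator induction, and 61 fell and 9 rose, with a median log2 fold change of -0.74, beside 37.2% lower and 38.2% higher of all genes. In the control line 0 of 123 passed (edgeR), beside 0.463% of all genes, and in the repressor line 2 rose, beside 9.81% of all genes in either direction.

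Other features of the induced activator libraries moved with these results. Their TMM factors, which correct for composition, were 0.852, 0.877 and 0.905, against 1.01 to 1.05 in all others. Between 22641 and 23420 genes had a count in them, against 20107 to 21331 in the others. Of 4 endothelial marker genes, Pecam1 was at 22.4, 23.3 and 18.3 CPM in induced against 0.268, 0.372 and 0.182 CPM in uninduced activator libraries, while Cdh5, Kdr and Tie1 were at or below 0.33 CPM in both. Their summed level was 18.5 to 23.4 CPM in induced against 0.182 to 0.414 CPM in uninduced libraries. The summed level of the 12 fibroblast markers was 24070 to 24560 CPM in induced against 21320 to 21620 CPM in uninduced activator libraries. That of 5 neural markers, 2 of which reached 1 CPM in any library, was 26.6 to 29.4 CPM in induced against 33.7 to 35.5 CPM in uninduced libraries. The sums of epithelial, macrophage and blood, and muscle markers overlapped between these groups. The part of these features in the result was not tested.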

How the data were processed

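The authors deposited 1 table of whole-number read counts per gene for 18 RNA-seq libraries, not normalized. Per the labels' protocols, total RNA was DNase-treated, purified on columns, made into stranded libraries after removal of ribosomal RNA and read from both ends. The genome build was mm10 per the submitters' processing notes. Which aligner, counter, annotation and strand setting were used is not given in the sources used here, so counts of the 8 members that overlap a gene on the opposite strand are uncertain, as are those of near-identical copies. The 8 members are Snora23, Snora57, Snora73a, Snora73b, Snora78, Snord4a, Snord8 and Snord35b. How many short RNAs the purification and library steps kept is not given either.

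Gene IDs were matched without version suffix to GENCODE M21 (47310 matched, 627 did not). The whole table was tested with edgeR 4.0.16 (R 4.3.3): TMM, filterByExpr, robust quasi-likelihood test, 1 coefficient per group, 12 residual degrees of freedom, Benjamini-Hochberg adjustment over 16216 genes at 0.05. CPM are counts divided by the TMM-normalized library size. SE is the log2 fold change divided by the square root of F. In 7 comparisons, induced libraries of each line were set against its uninduced ones, the change in the activator or repressor line against that in the control line, and each uninduced line against the uninduced control. Scripts were tested on simulated data in which far fewer genes changed than on activator induction, so scaling under such a broad change was not tested. The bar for recovery was changed after the first run, in which DESeq2 missed it for the smaller changes. Alternatives were DESeq2 1.42.0, limma-voom (limma 3.58.1), 4 scalings, no filter, the groups of the comparison alone, a replicate block and leaving out each library.

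Named genes were the 10 highest by mean CPM, in each comparison up to 8 called genes with the largest change in each direction at 1 CPM or more and up to 4 below it, and genes with known roles. The exceptions named after their values were seen are Snora57, Snord69, Snord11, Snord15a, Snord49b, the members of shared hosts and Pecam1. Members and lists were chosen with earlier results of these data known. Some host genes and sequences are not reported here.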

Additional observations from a re-analysis of the deposited data

Results flagged for a closer look

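The change on induction differed between the activator and control lines, by a test of the difference itself (edgeR interaction, Benjamini-Hochberg adjustment over all genes), for 41 of 65 genes, which is close to the 63.7% of all genes tested. By direction, 39 were lower and 2 higher, beside 33.0% lower and 30.8% higher of all genes. Among the named genes, the difference (activator line minus control line, log2) was -3.29 for Snord65, -2.83 for Snord32a, -2.22 for Snord49a, -2.20 for Snord88c, -2.08 for Snord19, -1.86 for Snora41, -1.85 for Snord89, -1.80 for Snora62, -1.79 for Snord83b, -1.73 for Snord87, -1.71 for Snord43 and -1.68 for Snord4a. It was 0.61 for Scarna2 and 1.15 for Snord7. Snord65, Snord32a, Snord88c, Snord89 and Snord7 rest on few counts. Snord7 did not pass the interaction test when any 1 of 7 libraries of these groups was left out. The groups differ in time as well as effector, which cannot be told apart.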

How the results depend on the processing

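On activator induction, 42 to 50 genes passed when 1 library was left out, beside 11762 of 16438 to 12520 of 16583 of all genes. Under the other settings 42 to 59 passed, with 7 higher and 41 lower under DESeq2 size factors, 2 higher and 45 lower under total counts and 0 higher and 59 lower under scaling to mitochondrially encoded genes. Of all 16216 genes, 12277, 12049 and 14371 passed under these 3 scalings, so the 59 is near the share over all genes. These scalings moved the median of all genes to 0.05, -0.22 and -0.74, and upper-quartile normalization moved it to 0.11. Of the 43 falls, 34 held under every alternative run, and of the 7 rises none did. Left-out libraries ended 9 falls and 4 rises. Scaling to mitochondrially encoded genes turned the sign of the log2 fold change of some genes. Of those that had risen, it put below 0 Scarna13 (-0.24), Scarna17 (-0.15), Scarna2 (-0.088, and -0.065 against the control line), Scarna9 (-0.078), Snora28 (-0.36) and Snord17 (-0.46). Of those that had not passed, it put below 0 Scarna6 (-0.54), Snora23 (-0.67), Snora30 (-0.72), Snora73b (-0.67), Snord11 (-0.73), Snord111 (-0.67), Snord85 (-0.70) and Snord98 (-0.29). This scaling shifts all genes of a comparison alike. It moved the median of all genes to -0.74 on activator induction, beside -0.014 on repressor induction and -0.055 on control induction. The activator interaction called 34 to 41 genes and the repressor induction 0 to 1 without 1 library, beside 9980 to 10424 and 1077 to 1812 of all genes. The uninduced activator against control called 1 gene with DESeq2, which gave an adjusted p to 19 of 65, and 2 with limma-voom. It called 1 to 5 without 1 library, against 4 in all. Of all genes, these settings called 2415 of 11500, 3134 of 16216 and 2281 to 3415, against 3157. The uninduced repressor against control called 1 with its own groups alone, beside 513 of 14601 of all genes. The cause was not tested. For the control induction DESeq2 gave no adjusted p to any of the 65 genes and so no value. The median fold change of the genes was -1.07 over genes with 1 host and -1.08 over genes wholly in introns, an alternative chosen after seeing the data, and that of the hosts 0.33 over hosts of genes with 1 host. Same-numbered libraries did not deviate together (correlations from -0.02 to 0.03), which cannot settle whether they share a batch or a pairing. With the replicate block across lines 7 genes rose and 42 fell on activator induction, beside 12220 of all 16216 genes in either direction. As a measure of what depth and spread allow, the standard error of the log2 fold change had a median of 0.231 in the repressor line and 0.234 in the control line over the 65 genes, with highest values of 0.472 and 0.45.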
